A study of Mus musculus with 9 samples.

Results

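The gene for p53 (Trp53) and 9 genes that p53 is known to regulate (Mdm2, Cdkn1a, Ccng1, Sesn1, Trp53inp1, Phlda3, Zmat3, Btg2 and Rprm) were followed through a cell model of ischemic stroke. These 10 genes were taken by symbol from a table of 54532 gene IDs, and all 10 were among the 13245 genes that averaged 0.5 FPKM or more (a library's fragments per kilobase of gene length, adjusted for sequencing depth) and were tested. RNA-seq was run on 9 libraries of HT22, a line of immortalized mouse hippocampal cells labelled as wild type (WT) and grown in high-glucose DMEM with FBS. In the OGE group, 3 libraries, cells went through 2 h of oxygen-glucose deprivation (OGD) and were then reoxygenated for 24 h with hiPS-MSC-EVs, the extracellular vesicles of mesenchymal stem cells made from human induced pluripotent cells. The OGP group, also 3 libraries, had the same OGD and reoxygenation with PBS, and the 3 control libraries came from cells left without treatment. The paper describes the medium after OGD by its serum (exosome-free FBS, none, or EVs) and the labels give the standard medium, so a difference in serum cannot be told apart from the EVs in OGE against OGP, nor from OGD and reoxygenation in OGP or OGE against control.

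The p53 protein is a transcription factor that is held at a low level by MDM2, a ubiquitin ligase whose own gene p53 switches on. Stress frees p53 from MDM2 mainly at the protein level, so the mRNA of Trp53 need not move when p53 becomes active. Active p53 raises genes that stop the cell cycle, repair DNA, limit growth signals or trigger apoptosis, and it can act in neurons after ischemia. HT22 descends from cells immortalized with SV40 large T antigen, a viral protein that binds p53. T antigen was not analysed here.

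A p53 response element consists of a pair of half-sites. The windows from 250 bases before to 50 bases after each RefSeq start site (GRCm38.p6) were searched on both strands. The search was for an element whose half-sites lie side by side, with at most 1 mismatch. An element with bases between its half-sites, or outside the window, would be missed. A window was at hand for 8 of the 10 genes (10 windows in all), and Trp53inp1 and Zmat3 had none. The element was found in 29 of 32851 windows (0.0883%), among them that of Ccng1 and 1 of the 2 windows of Cdkn1a. A single p53 half-site was found in 8.36% of all windows and in 5 of the 10 windows here. These were 1 window each of Ccng1, Cdkn1a, Mdm2, Sesn1 and Trp53, while the second windows of Cdkn1a and Sesn1 differed from the first. Of the 2 windows of each of these 2 genes, 1 held no half-site. The cyclic AMP response element (CRE), TGACGTCA, was found in 1.79% of all windows and, among the 10 genes, in that of Btg2. None of the other motifs was found in the window of Btg2. The AP-1 site TGANTCA (7.81% of all windows) and the CArG box (1.63%) were in none of the 10 windows. The sequences around these elements are shown for the genes that carry them, since Cdkn1a and Btg2 are among the genes that passed the test. The first is chr17:29090878-29090978 on the plus strand, the second chr11:40755412-40755531 on the minus strand and the third chr1:134079264-134079371 on the minus strand. Capitals mark the p53 element in the sequences of Cdkn1a and Ccng1 and the CRE in that of Btg2, and they are matches of letters, not measured binding.
Cdkn1a: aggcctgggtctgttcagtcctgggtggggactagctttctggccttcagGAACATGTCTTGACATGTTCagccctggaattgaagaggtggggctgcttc
Ccng1: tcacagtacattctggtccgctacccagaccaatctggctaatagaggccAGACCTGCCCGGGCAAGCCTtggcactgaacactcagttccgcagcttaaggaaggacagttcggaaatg
Btg2: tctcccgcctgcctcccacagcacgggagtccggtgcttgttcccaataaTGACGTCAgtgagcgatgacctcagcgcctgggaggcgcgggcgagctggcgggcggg
Both p53 elements had 1 mismatch over 20 bases. Relative to the RefSeq start site of the window that held them, they lay at -51 to -32 in Cdkn1a and -195 to -176 in Ccng1. The CRE of Btg2 lay at -166 to -159. The other window of Cdkn1a belongs to a start site further downstream (chr17:29093519-29093818) and held neither a p53 element nor a half-site.

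The libraries held 15026700 to 17368049 reads in genes for OGE, 16259448 to 19476806 for OGP and 17069241 to 18506865 for control. The mitochondrially encoded genes took 2.03% to 2.90% of the reads in OGE, 2.45% to 3.25% in OGP and 1.10% to 2.31% in control. Control replicate 1 and OGE replicate 3 stood apart from their groups on the third principal component, and results that rest on them are also given without them. Against the label of a hippocampal line, 2 of 12 neuron markers (Tubb3 and Map2) reached a mean of 0.5 FPKM, and defining markers such as Rbfox3 and Snap25 were at or near 0. The neuron markers summed to 13.6 to 17.7 FPKM in OGE, 12.5 to 13.5 FPKM in OGP and 7.95 to 10.5 FPKM in control, most of it Tubb3. Of 8 mesenchymal markers 7 reached a mean of 0.5 FPKM, led by Col1a1. The 8 summed to 827 to 963 FPKM in OGE, 999 to 1076 FPKM in OGP and 1183 to 1537 FPKM in control. The higher sum in control was that of Col1a1 (means of 369 FPKM in OGE, 383 FPKM in OGP and 777 FPKM in control), while Vim and Col3a1 had their highest means in OGP and Nt5e in OGE. Astrocyte markers, with 1 of 6 past that mean (Slc1a3) and Aqp4 at 0, summed to 2.83 to 3.28 FPKM in OGE, 4.14 to 5.72 FPKM in OGP and 9.35 to 11.1 FPKM in control. Microglia markers had 1 of 6 past that mean (Tmem119), with Itgam at 0, and summed to 9.02 to 10.2 FPKM in OGE, 16.5 to 18.99 FPKM in OGP and 12.2 to 17.4 FPKM in control. Endothelial markers also had 1 of 6 past it (Flt1), with sums of 1.41 to 1.68 FPKM in OGE, 1.16 to 1.42 FPKM in OGP and 3.20 to 3.26 FPKM in control, and no oligodendrocyte marker of 6 reached it. The part of these differences in the results below was not tested. In bulk libraries, fewer cells of a kind and less RNA per cell cannot be told apart.

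Trp53 itself was not called in any comparison. With EVs (OGE against OGP), Btg2 and Rprm fell 10.1-fold and 3.25-fold by mean FPKM. After OGD with PBS (OGP against control), Trp53inp1 rose 3.18-fold and Cdkn1a 1.89-fold, and Rprm fell 6.63-fold. In OGE against control, Trp53inp1 rose 3.38-fold, Btg2 fell 9.42-fold and Rprm fell 21.5-fold. A gene was called where limma's Benjamini-Hochberg adjusted p was at most 0.05 and the fold on the scale of FPKM + 0.5 was at least 1.5. On that scale Rprm fell 1.99-fold in OGE against OGP, and its OGE values rest on 6 to 12 reads each. The OGE libraries enter 2 comparisons, as do the OGP and the control libraries, so the 3 comparisons are not independent of each other.

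In OGE against OGP, which asks what the vesicles add after OGD, 2 of the 10 genes were called, both lower, against 8.12% of all genes tested in either direction and 4.73% lower. No member was called higher by limma, although 2 were higher at an unadjusted p under 0.05, and voom on the recovered reads called none higher either. The values of OGE and OGP did not overlap in 8 of the 10 genes (45.4% of all genes), 3 of them higher (23.3% of all genes) and 5 lower (22% of all genes) in OGE. In OGP against control, which asks what OGD and reoxygenation change, 3 of the 10 were called, against 12.1% of all genes. Of these 2 were higher (6.38% of all genes) and 1 lower (5.74% of all genes). The groups did not overlap in 4 (42.9% of all genes), 2 higher (20.3% of all genes) and 2 lower (22.6% of all genes). Set against control, OGE had 3 of the 10 called, against 11.5% of all genes, 1 of them higher (5.14% of all genes) and 2 lower (6.33% of all genes). Here 7 did not overlap (38.2% of all genes), 4 higher (18.6% of all genes) and 3 lower (19.6% of all genes). The median log2 fold change of the 10 genes was -0.19 in OGE against OGP, 0.04 in OGE against control and 0.09 in OGP against control, where that of all genes was within 0.01 of 0 in each. Log2 fold changes of both signs thus occurred among the 10 genes in every comparison, while the 2 called in OGE against OGP were both lower.

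At the centre of the pathway, the level of Trp53 (chr11:69580359-69591873, mm10) was high and even. It was 74.1, 74.8 and 76.6 FPKM in OGE, 72.4, 66.9 and 72.0 FPKM in OGP, and 65.4, 72.9 and 66.4 FPKM in control. The OGE libraries lay above all others, while OGP and control overlapped. Between OGE and OGP the log2 fold change was 0.09 (95% interval -0.07 to 0.26, adjusted p = 0.394), and in OGE against control it was 0.14 (-0.02 to 0.30, adjusted p = 0.193). For OGP against control it was 0.05 (-0.12 to 0.21, adjusted p = 0.662), so a 1.5-fold difference lies outside all 3 intervals. A processed pseudogene, Trp53-ps, had 35 to 83 reads per library, against 4432 to 5799 for Trp53, and reads that match both could be split between them.

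Mdm2 (chr10:117688875-117710758), the ligase that returns p53 to its low level, had 21.4, 21.5 and 19.1 FPKM in OGE, 15.3, 16.5 and 16.8 FPKM in OGP, and 16.6, 15.5 and 12.5 FPKM in control. Every OGE library was above every other library, and OGP and control overlapped. Against control, the log2 fold change of OGE was 0.47 (SE 0.107, adjusted p = 0.0119), which passed the threshold on p and not that on fold. It was 0.34 (0.10 to 0.58, adjusted p = 0.0519) in OGE against OGP and 0.13 (-0.11 to 0.37, adjusted p = 0.392) in OGP against control. With both control replicate 1 and OGE replicate 3 left out, an alternative chosen after seeing the data, it was 0.61 in OGE against control and was called.

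Among the genes for cell-cycle arrest, Btg2 (chr1:134075170-134079120) differed most between OGE and OGP. It encodes a partner of the deadenylase complex that slows proliferation, and it is both a p53 target and an immediate-early gene, induced within minutes by growth factors or stress. Its level was 2.66, 1.89 and 2.58 FPKM in OGE, 21.7, 26.4 and 23.7 FPKM in OGP, and 17.1, 30.0 and 20.2 FPKM in control. The OGE libraries were far below the rest, and the OGP libraries lay inside the range of the controls. Btg2 fell by 3.09 on the log2 scale (SE 0.193, adjusted p = 1.29e-05) in OGE against OGP, and 8 of the 13245 genes changed more in either direction. It fell by 2.96 (SE 0.193, adjusted p = 1.09e-05) in OGE against control, and its log2 fold change was 0.13 (-0.31 to 0.56, adjusted p = 0.656) in OGP against control. With both control replicate 1 and OGE replicate 3 left out, these log2 fold changes were -3.15 in OGE against OGP, -3.19 in OGE against control and -0.05 in OGP against control. The OGE values rest on 88 to 130 reads each.

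Rprm (chr2:54084093-54085552), whose product Reprimo arrests cells in G2, differed in all 3 comparisons. It had 0.422, 0.485 and 0.265 FPKM in OGE, 1.42, 1.25 and 1.14 FPKM in OGP, and 5.81, 9.97 and 9.47 FPKM in control. No group overlapped another, with OGE lowest and control highest. These values rest on 11, 12 and 6 reads in OGE, 41, 30 and 27 reads in OGP, and 148, 247 and 257 reads in control. With so few reads, the exact Poisson 95% interval, which covers counting error only, reached up to 0.756, 0.848 and 0.576 FPKM in the OGE libraries and down to 1.02, 0.846 and 0.749 FPKM in the OGP libraries. The intervals of OGE replicates 1 and 2 thus overlapped that of OGP replicate 3, and the interval of OGE replicate 2 also overlapped that of OGP replicate 2. On the log2 scale, Rprm fell by 0.995 (SE 0.195, adjusted p = 0.0076) in OGE against OGP, with values of -3.30 (SE 0.195, adjusted p = 7.15e-06) in OGE against control and -2.30 (SE 0.195, adjusted p = 7.85e-05) in OGP against control. With both libraries named above left out, these values were -0.89, -3.42 and -2.53, and all 3 were called. Only 3 genes fell further than Rprm in OGE against control. At this level the pseudocount of 0.5 sets the size of the change, and with a pseudocount of 0.1 the value in OGE against OGP was -1.50.

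Cdkn1a (chr17:29090976-29100727), the gene of the CDK inhibitor p21 and the best known arrest target of p53, followed another pattern. Its level was 3.57, 2.98 and 3.57 FPKM in OGE, 4.35, 4.83 and 3.80 FPKM in OGP, and 2.40, 2.44 and 2.01 FPKM in control. The OGE libraries lay between the other groups, which they did not overlap. It rose in OGP against control, by 0.79 on the log2 scale (SE 0.115, adjusted p = 0.00125). OGE against control gave 0.47 (SE 0.115, adjusted p = 0.0158), under the fold threshold, and voom on the recovered reads gave 0.59 and called it. In OGE against OGP it was -0.32 (-0.58 to -0.06, adjusted p = 0.0835), so the lower level with EVs did not pass the test. A gene model of uncertain status (AC167363.2) overlaps Cdkn1a on the other strand, with a mean of 1 read against 204 for Cdkn1a.

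Ccng1 (chr11:40748552-40755311), the gene of cyclin G1, which guides a phosphatase to MDM2, was at 21.0, 18.8 and 17.4 FPKM in OGE, 19.5, 23.8 and 24.3 FPKM in OGP, and 20.1, 13.7 and 15.1 FPKM in control. The groups overlapped in every pair, and control replicate 1 was the highest of its group. Its log2 fold change was -0.23 (-0.56 to 0.10, adjusted p = 0.297) in OGE against OGP and 0.24 (-0.09 to 0.57, adjusted p = 0.276) in OGE against control. OGP against control gave 0.47 (SE 0.146, adjusted p = 0.0379), under the fold threshold, and without control replicate 1 it was 0.63 (adjusted p = 0.00385) and was called. Ccng1 and Cdkn1a, in whose windows the search found a p53 element, both had their highest mean in OGP. So did Sesn1 and Btg2, in whose windows it found none.

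Of the genes that act on metabolism and survival, Trp53inp1 (chr4:11156431-11174379) changed most. It encodes a stress protein that promotes phosphorylation of p53 and autophagy. It had 4.67, 4.84 and 4.04 FPKM in OGE, 3.39, 4.80 and 4.57 FPKM in OGP, and 1.59, 0.974 and 1.45 FPKM in control. All OGE and OGP libraries were above all controls and overlapped each other. It rose by 1.46 on the log2 scale (SE 0.162, adjusted p = 0.00025) in OGE against control, and in OGP against control by 1.37 (SE 0.162, adjusted p = 0.000427). Between OGE and OGP the log2 fold change was 0.09 (-0.28 to 0.45, adjusted p = 0.743), an interval that leaves out a 1.5-fold difference in either direction.

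Sesn1 (chr10:41809935-41908424) encodes a sestrin, which restrains mTORC1 signalling and limits peroxides. Its level was 9.74, 9.76 and 8.88 FPKM in OGE, 12.2, 13.4 and 12.6 FPKM in OGP, and 12.8, 11.2 and 12.9 FPKM in control. The OGE libraries were below all others, and OGP and control overlapped. Sesn1 passed the threshold on p alone in OGE against OGP, at -0.41 on the log2 scale (SE 0.082, adjusted p = 0.0086), and in OGE against control, at -0.36 (SE 0.082, adjusted p = 0.0122). For OGP against control it was 0.05 (-0.14 to 0.24, adjusted p = 0.683). A gene model of uncertain status (9930024M15Rik) overlaps Sesn1 on the same strand, with a mean of 1 read against 794 for Sesn1.

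Phlda3 (chr1:135766119-135769136), the gene of a PH-domain protein that holds back AKT, was at 28.7, 28.8 and 31.1 FPKM in OGE, 35.5, 31.6 and 31.3 FPKM in OGP, and 27.3, 50.9 and 45.4 FPKM in control. The OGE libraries were all below the OGP libraries, and control replicate 1 was the lowest library of all, while the other controls were the highest. Its log2 fold change was -0.15 (-0.58 to 0.29, adjusted p = 0.638) in OGE against OGP and -0.28 (-0.72 to 0.16, adjusted p = 0.31) in OGP against control. Without control replicate 1, the log2 fold change in OGP against control was -0.55 (adjusted p = 0.00175), which passed the threshold on p and not that on fold. For OGE against control it was -0.43 (-0.86 to 0.01, adjusted p = 0.145) with all libraries, and -0.69 (adjusted p = 0.000474) and called without control replicate 1, so that library decides this call.

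Zmat3 (chr3:32334792-32366014), which encodes a zinc-finger protein that binds RNA and shapes splicing, had 3.10, 3.14 and 2.85 FPKM in OGE, 2.71, 2.41 and 1.98 FPKM in OGP, and 3.25, 3.10 and 3.25 FPKM in control. The OGP libraries were the lowest and overlapped neither of the other groups. Zmat3 passed the threshold on p and not that on fold in OGP against control, at -0.38 on the log2 scale (SE 0.106, adjusted p = 0.0268). It was 0.31 (0.07 to 0.55, adjusted p = 0.0715) in OGE against OGP and -0.07 (-0.31 to 0.17, adjusted p = 0.683) in OGE against control. Zmat3 was the only 1 of the 10 genes whose mean was lowest in OGP.

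**Figure D1:**
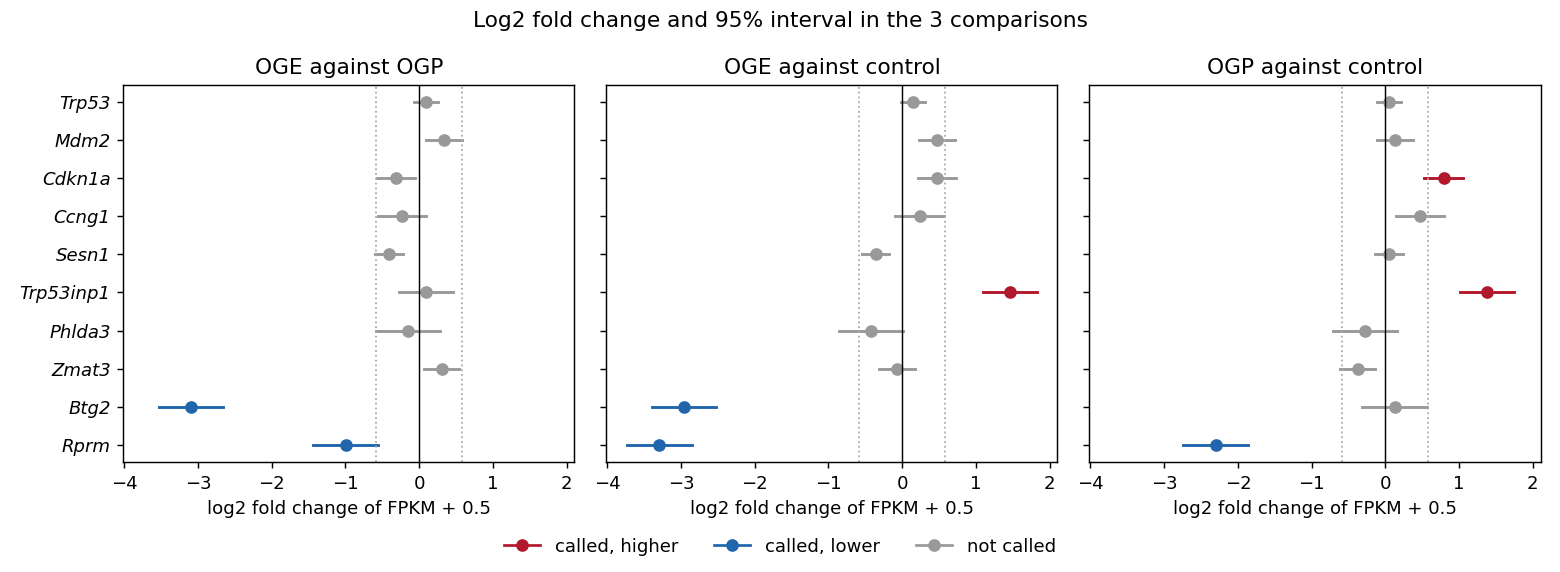
Log2 fold change of FPKM + 0.5 (horizontal axis) with its 95% interval for each of the 10 genes (rows), in OGE against OGP, OGE against control and OGP against control. Dotted lines mark a fold of 1.5 in either direction and colours the calls, which are 2 lower in OGE against OGP, 1 higher and 2 lower in OGE against control, and 2 higher and 1 lower in OGP against control.

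The order of the levels, which FPKM allows since it is given per length, was the same at the top in each group and changed below. Trp53 was highest and Phlda3 next in every group. In OGE the order went on with Mdm2, Ccng1, Sesn1, Trp53inp1, Cdkn1a, Zmat3, Btg2 and Rprm, and neighbours overlapped only for Mdm2 with Ccng1 and for Cdkn1a with Zmat3. In OGP it went on with Btg2, Ccng1, Mdm2, Sesn1, Cdkn1a, Trp53inp1, Zmat3 and Rprm, with overlaps between Btg2 and Ccng1 and between Cdkn1a and Trp53inp1. In control it went on with Btg2, Ccng1, Mdm2, Sesn1, Rprm, Zmat3, Cdkn1a and Trp53inp1, where each of the genes from Phlda3 to Mdm2 overlapped the next. Btg2 was therefore next to last in OGE and the third of the 10 genes in OGP and in control, and Trp53inp1 was the sixth in OGE and the last in control.

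**Figure D2:**
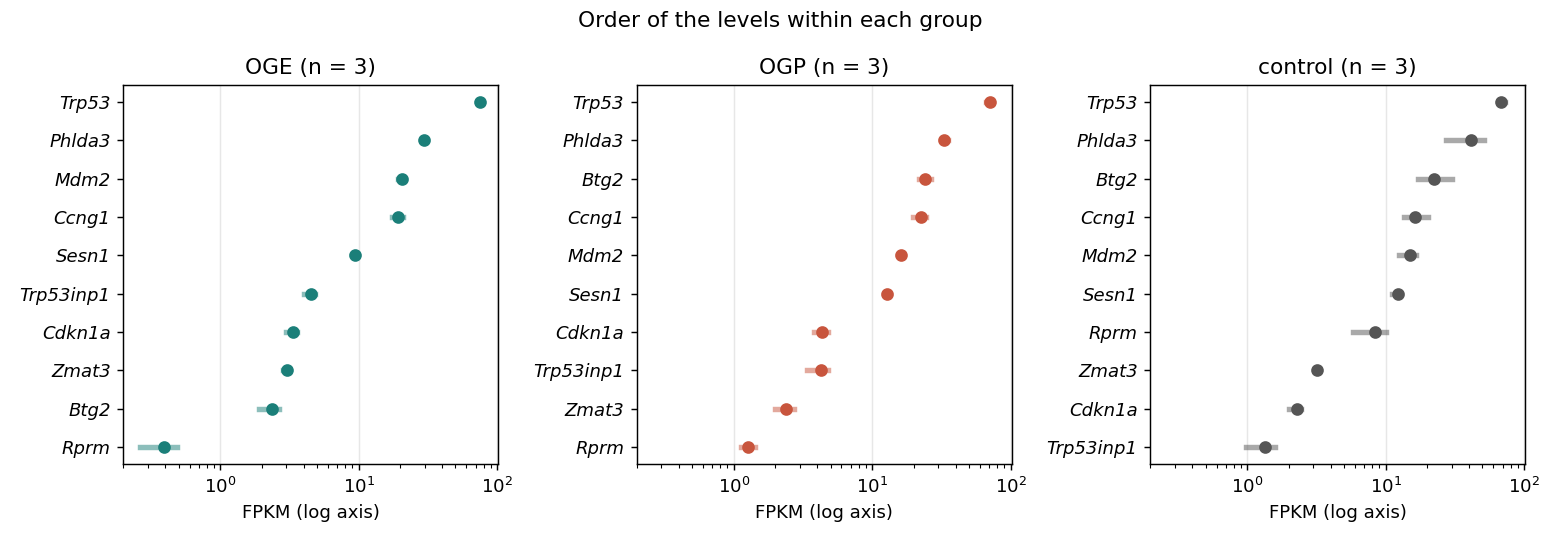
Mean FPKM (horizontal log axis) of the 10 genes in OGE, OGP and control, sorted by level in each group, with a line from the lowest to the highest of 3 libraries. Trp53 leads in each group with a mean of 75.2 FPKM in OGE, 70.4 FPKM in OGP and 68.2 FPKM in control, and Btg2 is at 2.38 FPKM in OGE, 23.9 FPKM in OGP and 22.4 FPKM in control.

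Further genes were described by 7 lists. These hold genes of the p53 pathway, paralogues of the 10 genes and, as a separate class, immediate-early genes. Among 20 p53 regulators, 1 was called lower in OGE against OGP, 1 higher and 1 lower in OGE against control, and 1 higher in OGP against control. Of all genes tested, 8.12%, 11.5% and 12.1% were called in these comparisons, against 5%, 10% and 5% of the regulators. Their median log2 fold change was 0.05, 0.16 and 0.08 in these comparisons, where that of all genes was within 0.01 of 0. The one that fell in OGE was Daxx, the gene of a histone chaperone that keeps MDM2 stable, at 16.5 ± 0.668 FPKM in OGE and 38.2 ± 1.80 FPKM in OGP (SD, n = 3 each), with a log2 fold change of -1.19 (adjusted p = 9.95e-06), and at 44.9 ± 2.06 FPKM in control. The one that rose was Chek1, the gene of the checkpoint kinase CHK1, at 8.54 ± 0.533 FPKM in OGE, 9.78 ± 1.29 FPKM in OGP and 5.57 ± 1.04 FPKM in control. Its log2 fold change was 0.59 (adjusted p = 0.0124) in OGE against control, a call lost without control replicate 2 or 3 or without OGE replicate 1 or 2, and 0.77 (adjusted p = 0.00317) in OGP against control. Mdm4, the partner of MDM2 that masks p53, was not called, with 6.40 ± 0.309 FPKM in OGE, 5.60 ± 0.139 FPKM in OGP and 5.59 ± 1.28 FPKM in control. Cdkn2a, which encodes the MDM2 inhibitor ARF and the CDK inhibitor p16, had 240.4 ± 6.08 FPKM in OGE, 345 ± 5.17 FPKM in OGP and 331 ± 105 FPKM in control and was not called either. The last 2 genes were singled out after their values had been seen.

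Of 17 paralogues of the 10 genes, 11 could be tested, and the p53 relatives Trp63 and Trp73 could not, with at most 0.138 and 0 FPKM. In OGE against OGP 1 was higher and 2 lower, and in OGP against control 3 were lower and none higher (1 at an unadjusted p under 0.05, and 0 by voom). For OGE against control limma called none of the 11, with 4 lower and 0 higher at an unadjusted p under 0.05, and voom none. The medians of the 11 were 0.18 in OGE against OGP, -0.05 in OGE against control and -0.22 in OGP against control. In these comparisons 27.3%, 0% and 27.3% of the 11 were called, against 8.12%, 11.5% and 12.1% of all genes tested. Ccng2, the gene of cyclin G2, rose in OGE against OGP and fell in OGP against control, at 8.05 ± 1.40 FPKM in OGE, 3.72 ± 0.251 FPKM in OGP and 6.96 ± 1.18 FPKM in control, with log2 fold changes of 1.01 (adjusted p = 0.00147) and -0.81 (adjusted p = 0.00312). Its paralogue Ccng1 had its highest mean in OGP, where Ccng2 had its lowest, but the groups of Ccng1 overlapped in every pair. Sesn2, the stress-responsive sestrin, fell in OGE against OGP by 0.80 on the log2 scale (adjusted p = 0.00297), next to -0.41 for Sesn1. Phlda1 fell by 0.62 there (adjusted p = 0.0025), a call lost without OGP replicate 3. Tob1, an antiproliferative relative of Btg2, fell by 0.69 and Trp53inp2, an autophagy gene related to Trp53inp1, fell by 0.65 in OGP against control (adjusted p = 0.000487 and 0.000846).

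Of 14 further arrest and repair targets of p53, 7.14% were called in OGE against OGP, 7.14% in OGE against control and 28.6% in OGP against control. Of all genes tested, 8.12%, 11.5% and 12.1% were called in these comparisons. In OGP against control, 3 of the 14 rose and 1 fell. The medians of the list were -0.02 in OGE against OGP, 0.00 in OGE against control and 0.25 in OGP against control. Those that rose were Plk2, a kinase gene, by 0.97 on the log2 scale (adjusted p = 0.000186), Gadd45a, a stress sensor of growth arrest, by 0.76 (adjusted p = 0.00129), and Sfn, the gene of 14-3-3 sigma, by 0.63 (adjusted p = 0.0069). The one that fell was Gtse1, which restrains p53 in G2, by 0.60 (adjusted p = 0.000869). The call of Sfn was lost without control replicate 1, and that of Gtse1 without control replicate 2 or OGP replicate 2. In OGE against OGP 1 gene of the list was called lower, Plk2, at 26.7 ± 3.26 FPKM in OGE and 64.4 ± 2.53 FPKM in OGP (SD, n = 3 each), with a log2 fold change of -1.26 (adjusted p = 4.18e-05). Gadd45a was the 1 gene called higher in OGE against control, at 55.8 ± 2.16 FPKM in OGE and 23.3 ± 3.73 FPKM in control, with a log2 fold change of 1.25 (adjusted p = 6.94e-05). Gadd45a had 39.5 ± 1.88 FPKM in OGP. Its level thus stood highest in OGE, where that of Plk2 was lowest.

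Of 13 apoptotic targets 12 were tested, and Pmaip1, the gene of NOXA, was listed at 0 FPKM in all libraries. In OGE against OGP limma called none of them, with 1 higher and 4 lower at an unadjusted p under 0.05, and voom called none. Medians were -0.10 in OGE against OGP, 0.10 in OGE against control and 0.20 in OGP against control. In these comparisons 0%, 16.7% and 16.7% of the 12 were called, against 8.12%, 11.5% and 12.1% of all genes tested. Higher in OGE against control were 2, Eda2r, a death receptor gene, by 1.09 on the log2 scale (adjusted p = 0.000308), and Pidd1, which nucleates a caspase-2 complex, by 0.64 (adjusted p = 0.00217), a call lost without OGE replicate 3. Higher in OGP against control were also 2, Eda2r by 1.38 (adjusted p = 0.000112) and Bid, a BH3-only activator of BAX, by 0.94 (adjusted p = 3.71e-05). Eda2r had 2.39 ± 0.157 FPKM in OGE, 3.04 ± 0.129 FPKM in OGP and 0.871 ± 0.219 FPKM in control (SD, n = 3 each). The genes of BAX and PUMA, effectors of cell death that p53 switches on, were not called in any comparison. Bax averaged 35.6 ± 4.67 FPKM in OGE, 36.9 ± 2.49 FPKM in OGP and 31.3 ± 5.96 FPKM in control, and Bbc3, which encodes PUMA, 3.04 ± 0.481 FPKM in OGE, 4.34 ± 0.822 FPKM in OGP and 3.93 ± 1.29 FPKM in control. They were singled out after their values had been seen.

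Of 21 metabolic and secreted targets 19 were tested, and 5 were called lower in OGE against OGP and none higher (4 at an unadjusted p under 0.05, and 1 by voom). Relative to control, OGE also had 5 called lower and none higher (2 at an unadjusted p under 0.05, and 0 by voom), and in OGP against control 3 were higher and 5 lower. The 19 genes had medians of -0.24 in OGE against OGP, -0.30 in OGE against control and -0.08 in OGP against control. In these comparisons 26.3%, 26.3% and 42.1% of the 19 were called, against 8.12%, 11.5% and 12.1% of all genes tested. Thbs1, the gene of the angiogenesis inhibitor thrombospondin 1, fell in OGE against OGP by 1.67 on the log2 scale (adjusted p = 9.7e-06) and in OGE against control by 1.01 (adjusted p = 0.000115). It rose in OGP against control by 0.66, a call lost without control replicate 3. Tap1, a peptide transporter of antigen presentation, fell by 1.203 in OGE against OGP and by 1.37 in OGE against control (adjusted p = 0.000151 and 5.24e-05). Ephx1, an epoxide hydrolase gene, fell by 0.65 in OGE against OGP and rose by 0.71 in OGP against control, and Cd82, a metastasis suppressor gene, fell by 0.65 in OGE against OGP. Gpx1, the gene of a peroxide-reducing enzyme, fell by 1.13 in OGE against control and the receptor gene Notch1 by 0.77. Dram1, a lysosomal regulator of autophagy, fell by 0.75 in OGP against control.

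Cell-cycle genes that p53 lowers through p21 and the DREAM repressor complex were mostly not called. Of 25, limma called none in OGE against OGP (3 higher and 2 lower at an unadjusted p under 0.05, and none by voom) and none in OGE against control (0 higher and 6 lower at an unadjusted p under 0.05, and none by voom). In OGP against control 3 fell, the mitotic kinase genes Aurka by 0.73 (adjusted p = 0.000365), Aurkb by 0.62 (adjusted p = 0.000921) and Plk1 by 0.59 (adjusted p = 0.00377). The calls of Aurkb and Plk1 were lost without control replicate 2 or 3, and that of Plk1 also without OGP replicate 2 or 3. None of the 25 was higher there (2 at an unadjusted p under 0.05, and 0 by voom). Their medians were 0.02 in OGE against OGP, -0.08 in OGE against control and -0.07 in OGP against control. In these comparisons 0%, 0% and 12% of the 25 were called, against 8.12%, 11.5% and 12.1% of all genes tested.

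In OGE against either other group, the largest share among the 7 lists was called for 17 immediate-early genes, a class that also holds Btg2, which is not on the list. In OGE against OGP 12 of the 17 fell and none rose (1 at an unadjusted p under 0.05, and 0 by voom), with a median log2 fold change of -1.83, against 0.00 for all genes. In OGE against control 12 fell as well, with a median of -1.83, and in OGP against control 3 rose, with a median of 0.02. The share of the 17 called was 70.6% in OGE against OGP, 70.6% in OGE against control and 17.6% in OGP against control. That of all genes tested was 8.12%, 11.5% and 12.1%. Fos, which encodes a subunit of AP-1, had 1.11 ± 0.131 FPKM in OGE, 66.9 ± 6.42 FPKM in OGP and 62.3 ± 18.2 FPKM in control (SD, n = 3 each), a log2 fold change of -5.39 (adjusted p = 8.57e-07) in OGE against OGP. Egr1, a zinc-finger factor gene, had 8.95 ± 0.849 FPKM in OGE, 56.4 ± 0.858 FPKM in OGP and 57.6 ± 8.42 FPKM in control. Ier2 fell by 2.27 and Dusp1, the gene of a MAP kinase phosphatase, by 3.09 in OGE against OGP, and Fosb fell by 3.32 in OGE against control. Nr4a1, Dusp1 and Klf4 rose in OGP against control, by 1.84, 1.14 and 0.99. For Btg2 the log2 fold changes were -3.09, -2.96 and 0.13 in OGE against OGP, OGE against control and OGP against control, next to -5.39, -5.25 and 0.14 for Fos.

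**Figure D3:**
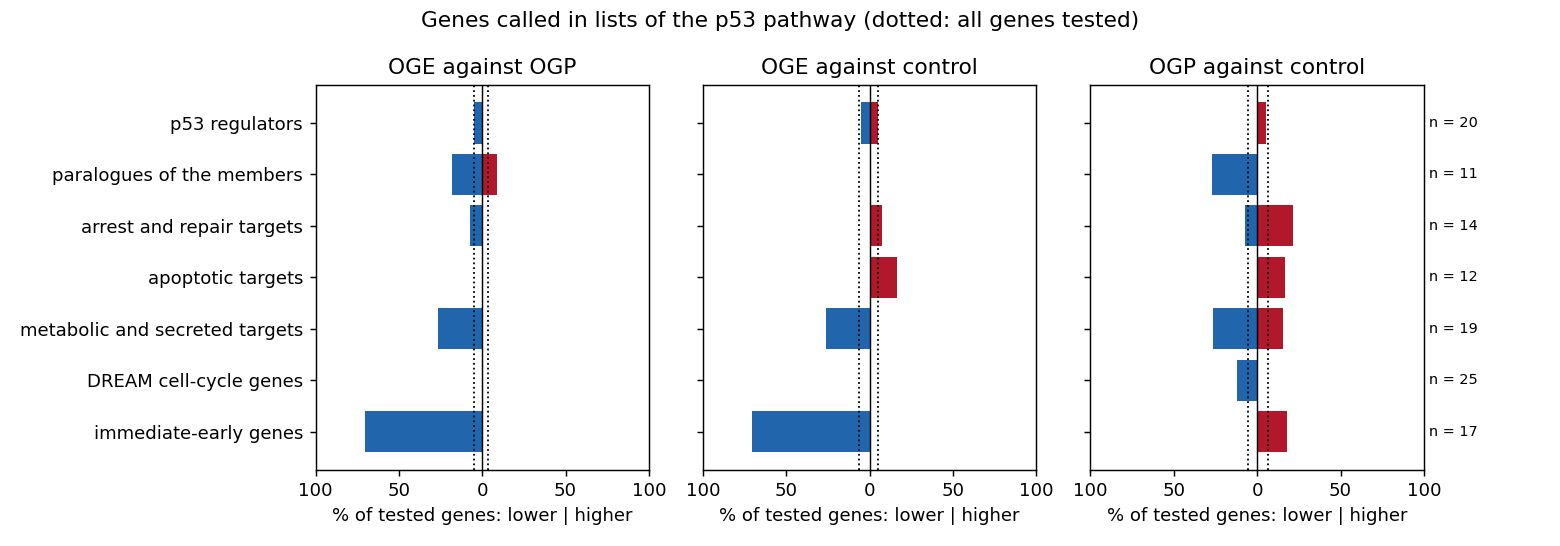
Share of the tested genes of each list (rows, with n at the right) called lower (left of 0) or higher (right of 0), in OGE against OGP, OGE against control and OGP against control, with the share of all genes tested as dotted lines. Immediate-early genes reach 70.6% lower in OGE against OGP and in OGE against control, and the lists of p53 targets stay at or below 26.3% in either direction.

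To place the patterns of 4 of the genes, the 3 protein-coding genes with the smallest root mean square difference in centred log2(FPKM + 0.5) over the 9 libraries were found for each among 10351 genes. For Btg2 these were Egr1, Ifit3 and Fosb, with differences of 0.28, 0.32 and 0.34, where Btg2 itself varied by 1.45 about its mean. Egr1 and Fosb are immediate-early genes, and Ifit3 is an interferon-stimulated gene with 51.6 FPKM in OGE, 440.1 FPKM in OGP and 391 FPKM in control on average. For Cdkn1a they were Lrrc27, Katnal2 and Nqo1 (0.08, 0.10 and 0.10, where Cdkn1a varied by 0.34), and Nqo1, the gene of a quinone reductase, averaged 79.6 FPKM in OGE, 102.6 FPKM in OGP and 61.5 FPKM in control. For Mdm2 they were Sec24a, Herpud2 and Nufip2 (0.08, 0.08 and 0.08, where Mdm2 varied by 0.23), and for Trp53 they were Wipi2, Surf2 and Atic (0.03, 0.04 and 0.04, where Trp53 varied by 0.08). None of these genes is among the 10 described here.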

How the data were processed

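Total RNA of 9 HT22 samples was sequenced in 3 groups of 3. The authors aligned reads with HISAT2 2.0.5 to mm10, per the labels, and counted them per gene with featureCounts. The deposited values are FPKM, made by the authors with a tool not given in the sources used here, and the library preparation is not stated to keep strand. The paper's own differential test, DESeq2 on counts, was not used. Reads were recovered by multiplying FPKM by gene length, since the products in a library came out as multiples of 1 smallest unit, to within 0.1. Whether a read pair counted once is not known.

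Genes that averaged 0.5 FPKM or more, 13245 in all, entered limma 3.58.1 (R 4.3.3) as log2(FPKM + 0.5), with a trended prior variance and 1 model for the 3 groups. The pseudocount understates changes of low genes. P-values were two-sided, with Benjamini-Hochberg adjustment over these genes. Calls needed an adjusted p no higher than 0.05 and a fold no lower than 1.5. Intervals and standard errors (SE) are those of the fit, with a confidence level of 95%, and values after ± are SD. Separate cultures are not stated, so p-values reflect only how these libraries vary. Positions are those in the deposited table, and all 10 had the same start and end in GENCODE M21.

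By the rule for named genes, all 10 genes are described, with up to 4 genes per list and comparison, those with the smallest p among the called ones. Likeness used tested protein-coding genes that averaged 1 FPKM or more. The members, lists and rule were chosen with earlier results of these data known. Lists overlap in Mdm4, Btg1 and Sesn2. Steps were tested on simulated data. Alternatives were other pseudocounts, filters, fold thresholds and scalings, voom on the recovered reads, a robust prior, only the 6 libraries compared, only protein-coding genes, a replicate block and leaving out each library.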

Additional observations from a re-analysis of the deposited data

How the results depend on the processing

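With no fold threshold or a fold threshold of 2, the genes called numbered 2750 or 393 in OGE against OGP, 3287 or 530 in OGE against control and 3941 or 436 in OGP against control, against 1075, 1519 and 1605 at a fold of 1.5. Of the 10 genes, no fold threshold called 6 in OGE against control and 5 in OGP against control, a threshold of 2 called 1 in OGE against OGP, and leaving out both control replicate 1 and OGE replicate 3, chosen after seeing the data, called 5 in OGE against control, where the share of all genes called was also larger (17.1%, against 11.5%). Leaving out a library in turn gave 2 in OGE against OGP and 3 to 4 in each of the other comparisons. The filters, fold thresholds, robust prior, replicate block, only protein-coding genes and only the 6 libraries compared left each log2 fold change as it was. So did leaving out a library of the group not compared, and the direction could not turn in any of these. Over 23 alternatives, 672 of 690 log2 fold changes of the 10 genes kept their direction and side of the threshold, 12 passed it and 2 lost it, both at a fold of 2 (Cdkn1a in OGP against control and Rprm in OGE against OGP). The direction turned in 4, none of them called, namely Sesn1 in OGP against control without control replicate 2 (-0.015, in a range of -0.015 to 0.083 over the libraries left out), Btg2 there without control replicate 1 and with both libraries left out (-0.045 each, in a range of -0.045 to 0.35), and Trp53inp1 in OGE against OGP without OGP replicate 1 (-0.051, in a range of -0.051 to 0.17). The causes were not tested. Other calls named above were lost with a pseudocount of 1 (Sfn in OGP against control, Pidd1 and Chek1 in OGE against control), with quantile normalization (Gtse1 in OGP against control, Ephx1 in OGE against OGP) or with median-ratio scaling (Plk1 in OGP against control). Rprm in OGE against OGP ranged from -1.66 with voom to -0.71 with a pseudocount of 1, with an adjusted p of at most 0.0321. It rests on 6 to 12 reads per OGE library, so its depth is low.

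Replicate numbers are shared by the groups. The deviations of libraries with the same number correlated at -0.18 to 0.32, and those with different numbers at -0.35 to 0.26. With 3 libraries per group, these values cannot decide whether the numbers pair the libraries. With a replicate block 1043 genes were called in OGE against OGP, 1484 in OGE against control and 1581 in OGP against control, and the called genes among the 10 numbered 2, 3 and 3 as without it.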

Other observations

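Trp53cor1, the long noncoding RNA lincRNA-p21 that lies upstream of Cdkn1a and is a known p53 target in mouse, was below the limit for the test and was singled out after its values had been seen. It had 0.300, 0.206 and 0.345 FPKM in OGE (20, 13 and 20 reads), 0.501, 0.360 and 0.181 FPKM in OGP (37, 22 and 11 reads), and 0.0614, 0 and 0.0577 FPKM in control (4, 0 and 4 reads). All OGE and OGP libraries were above all controls and overlapped each other, and the difference was not tested.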
